A study of Sycon ciliatum with 26 samples.

Results

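The 200 steadiest of 35307 gene IDs are described here, in regenerating structures and adult cells of the calcareous sponge Sycon ciliatum. They were chosen by the spread of their CPM, the reads of an ID per 1000000 reads counted in its library. To be eligible, an ID needed at least 20 CPM in each of the 26 libraries and a mean of at most 500 CPM, which 2768 IDs met. These were ranked by the standard deviation of CPM divided by its mean (SD/mean) over the 26 libraries, and the first 200 were taken. Their steadiness over the 26 libraries is therefore the criterion of choice and not a result, and all values below that rest on the same CPM are descriptions.

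Sponges were dissociated into cells, and mRNA libraries were sequenced from the structures that regenerated. The 25 regenerating libraries comprise 2 libraries of day 1 after dissociation, 2 of day 2, 6 of days 3 to 4, 6 of days 6 to 8, 4 of days 10 to 14, 3 of days 16 to 18 and 2 of days 21 to 24. The replicate numbers of days 10 to 14 run from 2 to 5 as in the titles, and the series text ends that window on day 12. The last library, called adult here, holds cells dissociated from a whole animal and has no replicate. The labels name no treatment, strain or genotype. They do not say how many animals a library came from or whether replicates came from separate cultures, so p-values measure only the spread between these libraries, which may be technical. Totals ranged from 7425481 to 26087749 counts. No 2 libraries of a window were duplicates: over 42 pairs the chi-square per ID, which is near 1 for counting noise, was at least 15.05. The adult library stood farthest from the members' mean levels, and the list without it is given at the end. Bulk counts do not tell fewer cells of a type from less RNA per cell.

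Dissociated sponge cells can reaggregate, sort and rebuild a functional animal, and many genes change in such a sequence. Genes with housekeeping roles, among them parts of the machinery for translation, protein turnover and energy supply, are often taken to stay level through development and are used as reference genes. A reference gene is only steady with respect to the quantity it is divided by, since sequencing measures shares of a library and not molecules per cell. No gene name accompanies an ID, and 0 of the 35307 matched the 26717 genes of the RefSeq table for this species, so no function, position or sequence of a member is given. Gene length is not in the files either. A CPM is a level within 1 ID and is not compared between IDs as expression.

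The steadiest ID, MSTRG.21589, averaged 125 CPM ± 10.6 (SD, n = 26), an SD/mean of 8.46%. It had 134 and 130 CPM in replicates 1 and 2 of day 1 and 147 and 121 CPM in those of day 2. Its lowest, median and highest values were 114, 127 and 136 CPM in days 3 to 4, then 118, 129 and 143 CPM in days 6 to 8. The ranges of these windows overlapped. In days 10 to 14 the libraries held 108, 115, 130 and 104 CPM, days 16 to 18 held 130, 115 and 131 CPM, and days 21 to 24 held 127 and 129 CPM. The lowest value of the series, 104 CPM, was in replicate 5 of days 10 to 14, and the adult library stood at 108 CPM. The highest library was 1.41 times the lowest, the smallest such ratio among the members.

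MSTRG.20264 was the second steadiest and also the member with the lowest mean, 28.0 CPM ± 2.61 (SD, n = 26; SD/mean 9.32%). It had 32.1 and 27.8 CPM at day 1, 31.1 and 24.6 CPM at day 2 and 29.4 and 32.2 CPM at days 21 to 24. Its range was 22.3 to 29.9 CPM over days 3 to 4 and 24.9 to 29.9 CPM over days 6 to 8. It stood at 30.1 CPM in the adult library, within the range of the regenerating libraries. Its smallest count in a library was 183 reads. Counting error alone would give this ID a spread of 5.67%, which is 37.1% of its variance and the highest such share among the members.

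MSTRG.29314, the third, averaged 89.4 CPM ± 8.87 (SD, n = 26). The 6 libraries of days 6 to 8 lay between 92.9 and 101 CPM. One library carried much of its spread, replicate 4 of days 3 to 4 with 62.2 CPM, against 82.6 to 98.2 CPM in the rest of its window. With that library left out its SD/mean was 7.82%, compared with 9.92% over all 26. MSTRG.4917, the fourth, averaged 41.7 CPM ± 4.22 (SD, n = 26), holding 45.1 and 45.9 CPM at the last window and 34.8 and 40.8 CPM on day 1. Its highest value was 52.8 CPM in replicate 5 of days 10 to 14, the library that held the lowest value of MSTRG.21589. MSTRG.9405, the fifth, averaged 215 CPM ± 21.9 (SD, n = 26). Its lowest value, 168 CPM, and one of its higher ones, 242 CPM, were the replicates of the same day, day 1. The mean over the regenerating libraries, 215 CPM ± 22.3 (SD, n = 25), equalled the value of the adult library, 215 CPM.

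**Figure D1:**
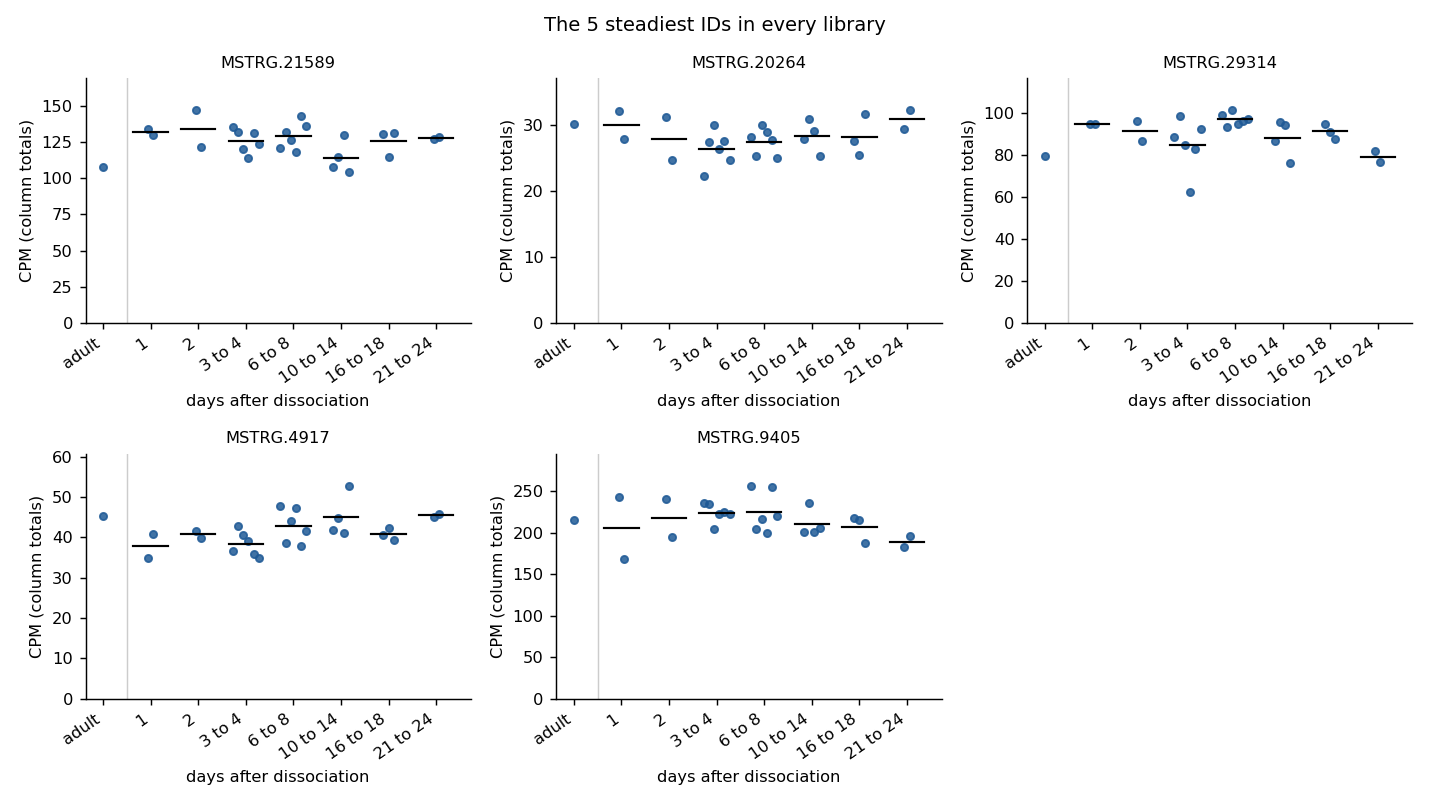
CPM on column totals of the 5 steadiest IDs in the adult library and the 25 regenerating libraries, by days after dissociation; each point is a library, each bar the mean of a window, and each vertical axis starts at 0. MSTRG.21589 stays between 104 and 147 CPM, and MSTRG.29314 has a single low point of 62.2 CPM at days 3 to 4.

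Across all 200 members the SD/mean ran from 8.46% to 15.3%, with a median of 14.1%. The other 2568 eligible IDs had a median of 25.8% and reached 218%. Most members therefore lie close to the limit of the list, and there is no gap at it. The last members were MSTRG.1297 at 15.27% and MSTRG.4642 at 15.28%, and the first IDs left out were MSTRG.15798 at 15.29% and MSTRG.26080 at 15.32%. MSTRG.4642 had 33.8 CPM in the adult library and 42.3 to 73.9 CPM in the regenerating libraries, and MSTRG.15798 likewise had its lowest value, 51.6 CPM, in the adult library. The next 200 IDs in rank spanned 15.3% to 17.3%.

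The ratio of the highest to the lowest library gives a second view of the range. It was at most 2 for 182 of the 200 members (91%), compared with 116 of the next 200 IDs in rank (58%) and 200 of all other 2568 eligible IDs (7.79%), and at most 1.5 for 7 members. The median ratio was 1.77 in members and 2.95 in the other eligible IDs. It was largest in MSTRG.29806, at 2.51, whose values lay between 169 and 260 CPM in regenerating libraries (median 208 CPM) and at 104 CPM in the adult library. Its adult value lay below all 25 regenerating ones. These shares follow from the rule.

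Members had means from 28.0 to 485 CPM, with a median of 67.9 CPM. By level, 69 of the 678 eligible IDs with a mean between 20 and 50 CPM were members (10.2%), as were 63 of 1076 between 50 and 100 CPM (5.86%), 35 of 595 between 100 and 200 CPM (5.88%) and 33 of 419 between 200 and 500 CPM (7.88%). The lowest level held the highest share of members. The median counting error of eligible IDs was 4.71% there and 1.79% at the highest level. The median SD/mean of all eligible IDs was 21.9% at the lowest level and 30.7% at the highest. The floor of 20 CPM in every library removes low-mean IDs that dip below it in any library. This limits the spread of eligible IDs at the lowest level, so nothing is read from these differences between levels. The highest mean belonged to MSTRG.15107, with 485 CPM ± 70.0 (SD, n = 26), a lowest value of 308 CPM in the adult library and a highest of 603 CPM in replicate 5 of days 6 to 8.

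Counting error made up a small share of the members' spread. From the counts alone, a spread of 3.65% was expected for the median member, and counting accounted for a median of 7.14% of the variance of a member. The smallest count of any member in any library was 170 reads. In the other eligible IDs the median share was 1.58%.

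**Figure D2:**
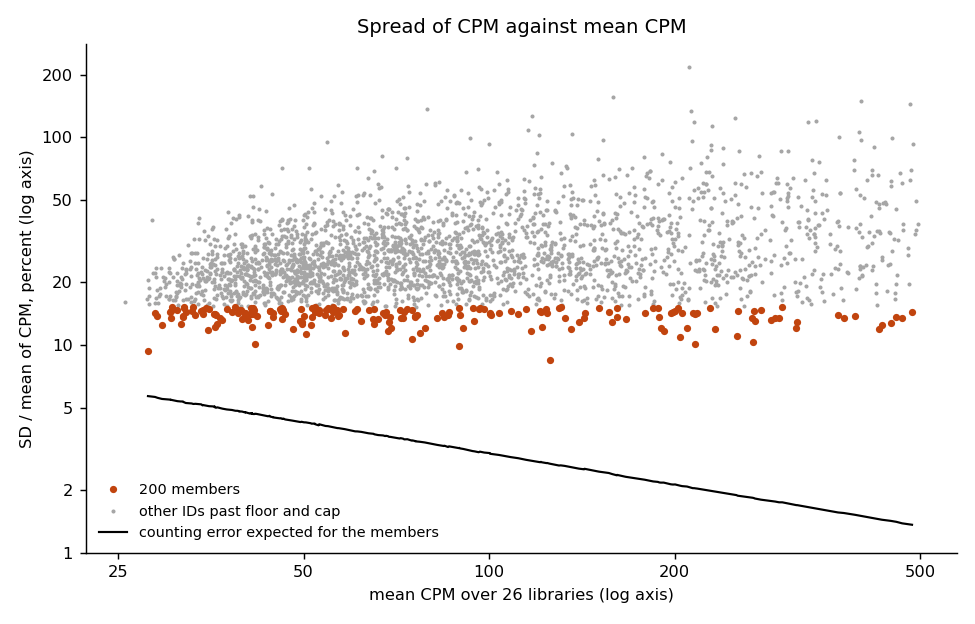
SD/mean of CPM in percent (vertical, log axis) against mean CPM over 26 libraries (horizontal, log axis) for the 200 members and the other 2568 eligible IDs, with the counting error expected for the members as a line. The members form the lower edge of the cloud, up to 15.3%, and lie above the line, which falls from 5.67% to 1.36%.

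Libraries differed in how closely they held to the members' usual levels. The mean absolute deviation of a member from its own mean was 0.103 to 0.198 on the log2 scale in the regenerating libraries and 0.297 in the adult library. Replicate 4 of days 6 to 8 was closest, with 200 of 200 members within 25% of their mean and 144 within 10%. Replicate 6 of days 3 to 4 also had 200 within 25%. In replicate 1 of day 1, the most deeply sequenced library, 169 members were within 25%. The adult library had 137 within 25% and 64 within 10%. Replicate 5 of days 6 to 8 held the highest value of 35 members, more than any other library. The geometric mean over the members was also highest there, at 85.6 CPM. The matching count is not given for the other eligible IDs, so nothing is read from it. The adult library held the lowest value of 55 members, where 29.3% of all eligible IDs had their lowest value in it. The other eligible IDs deviated by 0.204 to 0.622 in regenerating libraries and 0.688 in the adult library, so the adult library was the farthest from the mean in both sets.

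Together the members took 2.20% ± 0.0968 of all reads (SD, n = 25) in the regenerating libraries and 1.97% in the adult library. By window this share was 2.16% ± 0.210 at day 1, 2.17% ± 0.184 at day 2, then 2.20% ± 0.0688 (days 3 to 4) and 2.27% ± 0.0853 (days 6 to 8), each with its SD. The later windows had 2.18% ± 0.0764 (days 10 to 14), 2.21% ± 0.0534 (days 16 to 18) and 2.08% ± 0.0254 (days 21 to 24). Both libraries of days 21 to 24, at 2.06% and 2.10%, lay below every library of days 3 to 18. At days 1 and 2 the replicates differed more than the windows did. The geometric mean over the members was 83.1 CPM in replicate 1 and 74.1 CPM in replicate 2 of day 1, and 83.9 CPM and 74.2 CPM in those of day 2. These 4 libraries spanned nearly the range of all regenerating libraries, 74.1 to 85.6 CPM.

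Within their narrow range, members did not share one course over time. A median of 34.4% of a member's variance of log2 CPM over the 25 regenerating libraries lay between the windows, compared with 50.9% in the other eligible IDs. The share is not adjusted for the number of windows. Libraries that differ without regard to time also give a positive share, so it does not measure change over time alone. The ratio of the highest to the lowest window mean had a median of 1.28 in members and 1.78 in the other eligible IDs. The highest window mean was that of day 1 in 40 members, day 2 in 27, days 3 to 4 in 20, days 6 to 8 in 40, days 10 to 14 in 16, days 16 to 18 in 31 and days 21 to 24 in 26. The shares of members were 20% (day 1), 13.5% (day 2), 10% (days 3 to 4), 20% (days 6 to 8), 8% (days 10 to 14), 15.5% (days 16 to 18) and 13% (days 21 to 24). In the other eligible IDs they were 20.4%, 19.4%, 6.70%, 15.8%, 8.10%, 14.4% and 15.3% in the same order, so most were near the members' shares. The lowest was most often at days 21 to 24, in 70 members (35%, against 24.3% of the other eligible IDs), and next at day 1, in 46 (23%, against 33.3%). Both windows hold 2 libraries. Over the 26 libraries, log2 CPM of 2 members correlated with a median Pearson's r of 0.115 over all 19900 pairs, with 65.9% of pairs above 0. All pairs share the libraries and their totals, and the value is a description.

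The end of the time course (days 16 to 24, 5 libraries) was compared with its start (days 1 and 2, 4 libraries) on the CPM scale of the rule. The members divided evenly. Exactly 100 had a higher mean at days 16 to 24 and 100 a lower one, and the median log2 ratio was 0.00. Of the next 200 IDs in rank, 98 were higher and 102 lower. Of the other 2568 eligible IDs, 1356 were higher and 1212 lower. The late libraries had a geometric mean over the members of 79.1 CPM ± 2.60 (SD, n = 5), the early ones 78.8 CPM ± 5.40 (SD, n = 4). The log2 ratios ran from -0.46 to 0.45, with a median size of 0.16, against 0.51 in the other eligible IDs. A rule that keeps IDs of low spread also limits this ratio.

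The sample sets, which the labels number but do not describe, were taken as possible batches, and the ratio was recomputed within them. Within Set I (2 libraries on each side) the members' median log2 ratio was -0.09 and 126 of 200 were below 0. Within Set II (2 on each side) it was 0.07 and 123 were above 0. The even division of the pooled libraries thus did not hold within either set. At days 1 and 2, replicate 1 is of Set I and replicate 2 of Set II. The other sets hold no library of days 1 and 2.

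Steadiness against the library total need not be steadiness against the typical gene. Totals were also adjusted by TMM, a scaling that assumes most IDs do not change and uses the bulk of them as the standard. With TMM set over all 23995 IDs tested, the members no longer centred on 0. In edgeR's fit of all 25 regenerating libraries with TMM, days 16 to 24 were compared with days 1 and 2. Of the 200 members, 175 had a negative log2 fold change, with a median of -0.24. A negative value was also found in 149 of the next 200 IDs in rank and in 1496 of the other 2568 eligible IDs. In the same fit on column totals the members' median was -0.0037. With TMM set over only the 3046 IDs of at least 20 CPM in every library, it was -0.036. The median of those 3046 IDs was -0.0004, so the shift of the members depended on which IDs set the scale. The scaling moved the bulk of IDs as well: the median of all 23995 IDs tested was 0.02 under TMM and 0.25 on column totals. Relative to that median, the members stood at -0.26 under TMM and -0.25 on column totals. The other eligible IDs stood at -0.19 under both, so a position below the median of all tested IDs was shared with other IDs of at least 20 CPM in every library. The difference between members and other eligible IDs was not tested.

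The TMM factors, by which library totals are multiplied, averaged 1.05 ± 0.0586 (SD, n = 5) in the late libraries, against 0.892 ± 0.0231 (SD, n = 4) in the early ones, and the groups did not overlap, with 0.993 to 1.14 in the late libraries and 0.867 to 0.922 in the early ones. On TMM-scaled totals, set over all 26 libraries, the members' median log2 deviation from their means averaged 0.14 on day 1, 0.08 on day 2, 0.02 in the window of days 3 to 4 and -0.04 in that of days 6 to 8. The last 3 windows had -0.06, -0.10 and -0.12. The means of days 1 and 2 were carried by replicate 1, which had 0.27 on day 1 and 0.17 on day 2, where replicate 2 had 0.0006 and -0.01. The adult library was the lowest of all libraries on column totals, at -0.17, and was exceeded only by replicate 1 of day 1 and of day 2 on TMM-scaled totals, at 0.14. Within Set I the members' median log2 ratio of days 16 to 24 over days 1 and 2 was -0.31 on TMM-scaled totals. Within Set II it was -0.14. Both were negative like the pooled value, but their libraries are part of the pooled comparison and do not replicate it.

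**Figure D3:**
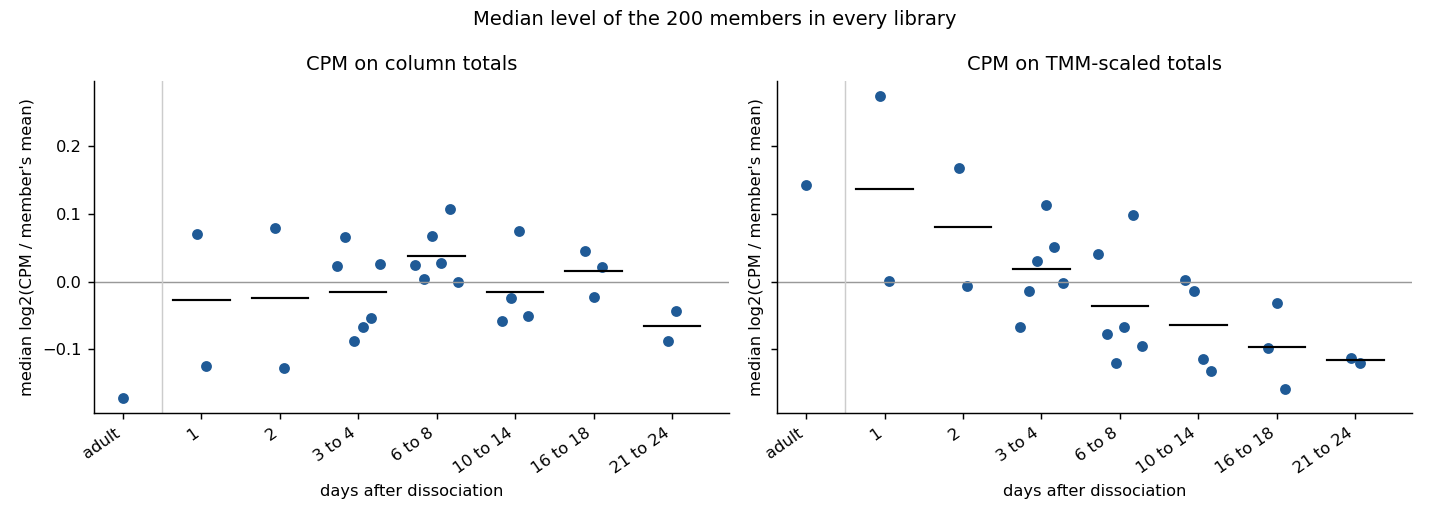
Median over the 200 members of log2(CPM / the member's mean) in every library, on column totals (left) and on TMM-scaled totals (right), with the adult library leftmost and then the windows in days after dissociation; bars are window means. On column totals the window means lie between -0.07 and 0.04, and on TMM-scaled totals they lie between 0.14 at day 1 and -0.12 at days 21 to 24; at days 1 and 2 replicate 1 lies at 0.27 and 0.17, and replicate 2 near 0.

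Counts of called members followed the scale in the same way. The calls of days 16 to 24 against days 1 and 2 were made by edgeR's quasi-likelihood test. A Benjamini-Hochberg adjusted p under 0.05 over all IDs was required. With TMM, 61 members were called, 61 lower and 0 higher. Of all 23995 IDs tested, 43.9% were called, 23.2% lower and 20.7% higher. Of the next 200 IDs in rank, 75 were called lower and 2 higher. Of the other 2568 eligible IDs, 914 were called lower and 466 higher. On column totals 18 members were called, 10 higher and 8 lower, where 43.7% of all IDs were called, 26.6% higher and 17.1% lower. With libraries scaled to the geometric mean of the members, 20 were called, 11 higher and 9 lower, where 44% of all IDs were called, 26.7% higher and 17.3% lower. Of the 18 called on column totals, 8 were also called under TMM. Of all calls, 47.2% were higher under TMM, 60.8% on column totals and 60.7% on the members' own scale. In the comparison of all 7 windows, 21 members were called under TMM, where 37.5% of all IDs were called. On column totals 5 members and 36.9% of all IDs were called, and on the members' own scale 6 members and 37.1% of all IDs. With DESeq2 the count over 7 windows was 45, where 46% of all IDs were called, and among IDs with at least 20 CPM in every library it was 13, where 49.7% were. Late against early, 40 members were called under upper-quartile scaling, all lower (43.7% of all IDs). Among IDs with at least 20 CPM in every library, 27 members were called, 13 higher and 14 lower. Of those IDs 53.1% were called, 810 higher and 808 lower. With DESeq2 the count late against early was 74, all lower, where 46% of all IDs were called. The rule chose members by the values tested here, so their counts are given as a description and nothing is read from their distance to these shares. Single libraries moved the count of 61, which fell most without replicate 1 of day 1, replicate 1 of day 2 or either library of days 21 to 24. That count did not fall without replicate 2 of day 1 or replicate 2 of day 2, where the window also kept 1 library. The count of 21 fell most without replicate 1 of day 1 or either library of days 21 to 24. In each of these fits the share of all IDs called fell. The window concerned kept 1 library, so nothing is read from the size of the fall in members.

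**Figure D4:**
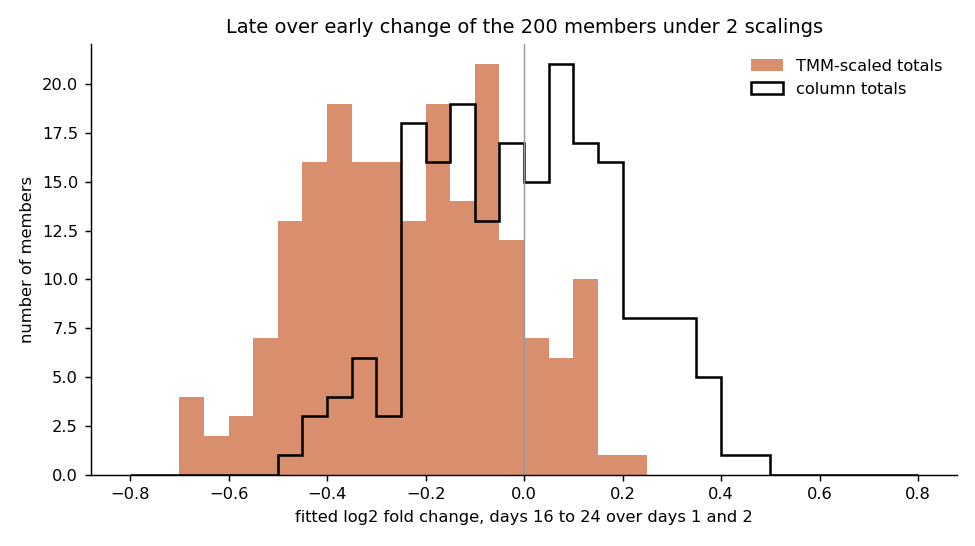
Number of members (vertical) by fitted log2 fold change of days 16 to 24 over days 1 and 2 (horizontal) in edgeR, with TMM-scaled totals filled and column totals outlined. The filled distribution has its median at -0.24 and the outlined one at -0.0037.

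The 2 members with the most negative and the 2 with the most positive fitted change show how large a course fits within the list. They were picked for that change, so their calls and the separation of their late and early libraries follow from the choice. MSTRG.30027 had 40.9, 39.5, 36.3, 38.9 and 38.3 CPM in the libraries of days 16 to 24, against 57.4, 53.9, 56.2 and 45.5 CPM in those of days 1 and 2. All 5 late libraries lay below all 4 early ones, and the windows between stepped down through means of 49.6, 45.6 and 43.8 CPM. Its mean was 38.8 CPM ± 1.69 (SD, n = 5) late and 53.3 CPM ± 5.36 (SD, n = 4) early, a fitted log2 fold change of -0.69 under TMM and -0.46 on column totals. The adult library had 41.0 CPM, near the late libraries. MSTRG.17218 had 49.6, 41.8, 43.5, 46.8 and 48.1 CPM late and 55.4, 63.4, 64.9 and 67.9 CPM early, again without overlap. Its mean was 46.0 CPM ± 3.24 (SD, n = 5) late and 62.9 CPM ± 5.32 (SD, n = 4) early, and its fitted change was -0.67 under TMM and -0.44 on column totals. Its adult value, 31.5 CPM, was the lowest of all its 26 libraries. MSTRG.30027 and MSTRG.17218 were called lower on both scales.

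MSTRG.10604 had 42.1, 41.8, 44.1, 44.7 and 47.9 CPM late and 25.1, 40.2, 29.2 and 34.9 CPM early. The groups did not overlap, but replicate 2 of day 1, at 40.2 CPM, came close to the late libraries, while replicate 1 of the same day was the lowest of all 26. Its fitted log2 fold change was 0.23 under TMM and 0.46 on column totals, 0.21 above the median of all tested IDs on either scale. Leaving out replicate 1 of day 1 gave 0.09 under TMM, and leaving out replicate 2 gave 0.40. MSTRG.27870 had 58.0, 46.3, 57.7, 57.7 and 53.3 CPM late and 42.6, 38.9, 43.3 and 38.0 CPM early, with a fitted change of 0.19 under TMM and 0.43 on column totals. On TMM-scaled totals this ID had an SD/mean of 9.40% and was the second steadiest of 2953 eligible IDs. On column totals it ranked 79. With all libraries and IDs, neither MSTRG.10604 nor MSTRG.27870 was called under TMM, and both were called on column totals. Under TMM, MSTRG.10604 was called without replicate 2 of day 1, and both were called when only IDs with at least 20 CPM in every library were fitted.

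Against the adult library, the regenerating mean was higher in 139 members (69.5%) and lower in the other 61; it was higher in 70.2% of the 2768 eligible IDs, a share near that of the members. It was at least 1.5-fold higher in 25 members, where 37.1% of the 2768 eligible IDs reached that fold, and at least 1.5-fold lower in 1 member, where 9.68% did. The median ratio of the regenerating mean to the adult value was 1.13 in members and 1.31 in the other eligible IDs. The adult value lay outside the range of all 25 regenerating libraries in 66 members (33%), below it in 55 and above it in 11. Of all eligible IDs 37.1% had their adult value outside that range, 29.3% below and 7.84% above, so the members' counts are near this background. The rule used the adult library too, and there is a single adult library, so these folds have no replicate check. All of them are on column totals. The members' median log2 deviation in the adult library was -0.17 on column totals and 0.14 on TMM-scaled totals. The direction of a fold against the adult library can therefore depend on the scale, and the counts are not given under TMM.

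MSTRG.16741 was the member that stood farthest above the adult library. Its lowest, median and highest values in the 25 regenerating libraries were 411, 449 and 535 CPM, against 226 CPM (2576 reads) in the adult library. Its regenerating mean of 457 CPM ± 35.6 (SD, n = 25) was 2.02 times the adult value. Over the regenerating libraries alone its SD/mean was 7.79%, the second lowest of the 3101 IDs eligible there, whereas with the adult library it ranked 38. MSTRG.7411 was its counterpart, with 48.7, 62.1 and 68.8 CPM as lowest, median and highest regenerating values and 94.3 CPM in the adult library. Its regenerating mean, 59.8 CPM ± 6.24 (SD, n = 25), was 0.634 times the adult value. Without the adult library it ranked 12 with an SD/mean of 10.4%, and with it 169, both on column totals. On TMM-scaled totals of all 26 libraries MSTRG.7411 ranked 837 and MSTRG.16741 ranked 5.

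**Figure D5:**
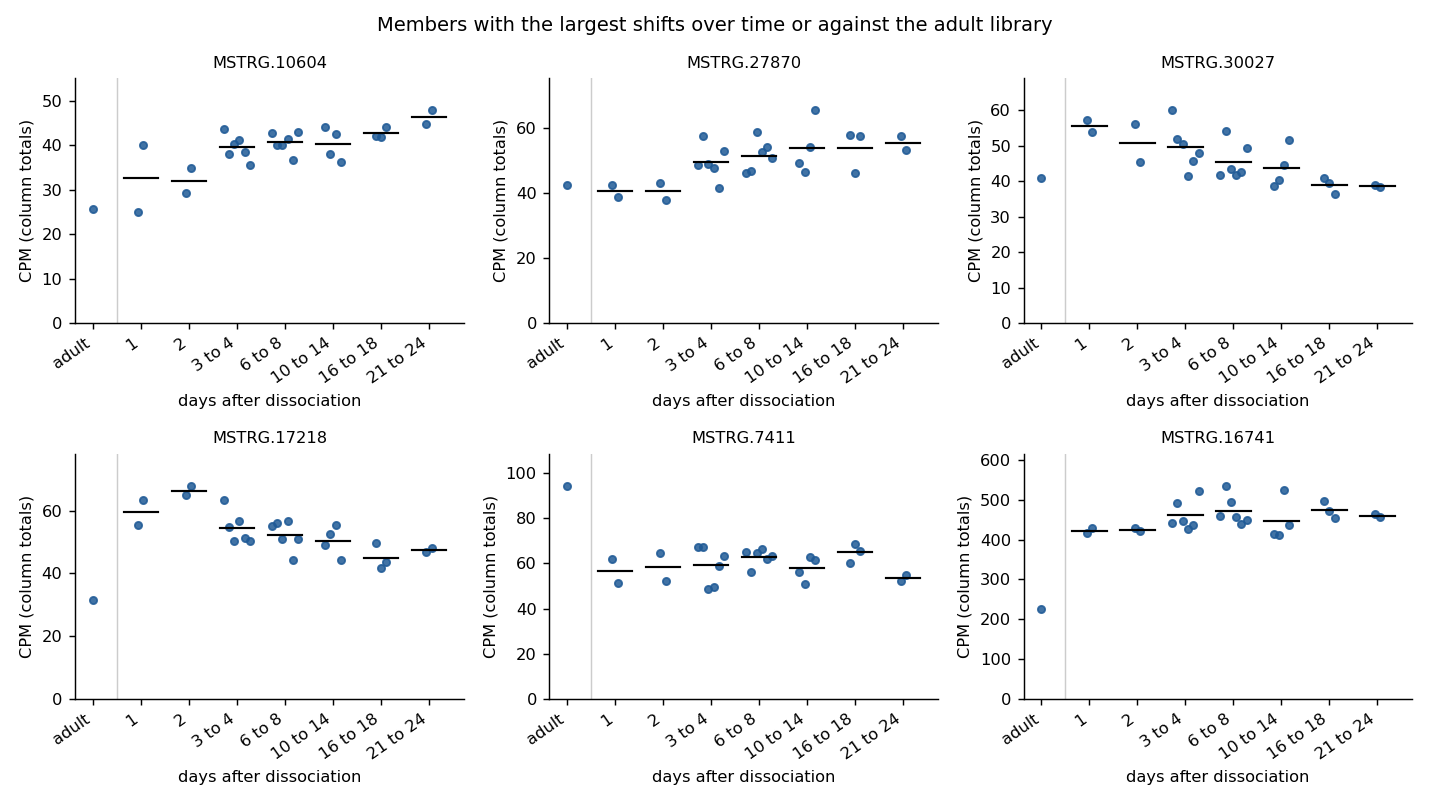
CPM on column totals of the 4 members with the most positive or negative change over time and of the 2 members farthest from the adult library, in every library by days after dissociation, with window means as bars and vertical axes from 0. MSTRG.30027 and MSTRG.17218 are lower and MSTRG.10604 and MSTRG.27870 higher at days 16 to 24 than at days 1 and 2, and MSTRG.16741 and MSTRG.7411 differ mainly in the adult library, at 226 CPM and 94.3 CPM.

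The list changed more with the scale than with any one regenerating library. Leaving out 1 regenerating library kept 169 to 195 of the 200 members, and leaving out the adult library kept 143. Of the scalings, 99 members remained under TMM, 93 under DESeq2 size factors and 102 under upper-quartile scaling, and 84 remained under each of the 3. Only 16 IDs stayed in the list under all 38 alternatives, among them MSTRG.21589, MSTRG.29314 and MSTRG.9405 of the 5 steadiest. The alternative with at least 40 CPM in every library excludes IDs of low level by its floor, however steady they are. The count of 16 therefore does not measure steadiness alone. MSTRG.20264 and MSTRG.4917, with lowest values of 22.3 and 34.8 CPM, missed only that alternative and stayed under the other 37. MSTRG.21589 ranked 15 under TMM with an SD/mean of 10.9%, and MSTRG.29314 ranked 13 with 10.9%. MSTRG.4917 ranked 48, MSTRG.20264 ranked 144 and MSTRG.9405 ranked 167, so all 5 stayed among the first 200 on that scale.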

How the data were processed

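Each library has 1 deposited table of raw counts by gene ID. Trimmomatic 0.36, HISAT2, StringTie, featureCounts, DESeq2 and Bowtie2 are named without roles in the submitters' processing notes. Genome build, gene models and strand are not given in the sources used here. IDs that overlap or share reads with near-identical copies could not be separated, so each ID's value is uncertain to that degree.

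CPM used column totals, as the member rule does. The members, lists and rules were chosen with earlier results of these data known. Named IDs are the 5 steadiest members, 2 on each side of rank 200, the highest and lowest mean, the 2 largest fitted changes in each direction, the 2 members farthest from the adult library and the largest ratio of highest to lowest library. All 200 members passed the filter on low counts.

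Time was tested with edgeR's quasi-likelihood F test, two-sided (R 4.3.3 with edgeR 4.0.16 and limma 3.58.1) after filterByExpr and TMM, with robust fitting,, in 25 libraries with the window as factor and Benjamini-Hochberg adjustment over 23995 IDs. Totals of 7425481 to 26087749 counts set the counting error given with the members. The edgeR procedure and the rule were tested on simulated data. Few IDs changed in the edgeR simulation, so it cannot check TMM scaling where many IDs change. DESeq2 1.42.0, other scalings, filters and blocks, and left-out libraries were alternatives. Descriptions used Python 3.11.15, NumPy 2.4.6 and pandas 2.3.3.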

Additional observations from a re-analysis of the deposited data

Results flagged for a closer look

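Dixon's gap was applied to 57 sets of values in the windows of 4 to 6 libraries, for the named IDs and 2 summaries of the members. It marked 1, and chance gives about 1 in 20. Replicate 3 of days 10 to 14 stood at 235 CPM of MSTRG.9405, against 200.54 to 205.65 CPM in the other 3 libraries of its window, a gap of 0.853 of the window's range where 0.829 is the critical value for 4 libraries.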

How the results depend on the processing

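Of the 200 members, 99 were kept under TMM, 93 under DESeq2 size factors, 102 under upper-quartile scaling, 120 with at least 40 CPM in every library, 88 by median absolute deviation over median and 109 with windows weighing equally; leaving out 1 regenerating library kept 169 to 195. The 21 members called over 7 windows became 5 on column totals, 6 on the members' own scale, 45 with DESeq2 and 13 among IDs with at least 20 CPM everywhere, and 7 to 23 with 1 library left out. The 61 called in days 16 to 24 against days 1 and 2 became 40 under upper-quartile scaling, 18 on column totals, 20 on the members' own scale and 27 among IDs with at least 20 CPM everywhere (13 higher, 14 lower), and 16 to 66 with 1 library left out. Among all IDs, that filter left 3046 to test, with 1513 called over 7 windows, against 8988, and 1618 called late against early, against 10531. Leaving out 1 library gave 6991 to 9270 and 7797 to 10685 such calls. With DESeq2 the 61 became 74, and with DESeq2 size factors 63, all lower. With a replicate block the 21 became 8 by title number and 11 by set label, and the 61 became 50 and 54. The numbers share no stated source: 8 of 49 same-numbered pairs by title and 9 of 53 by set label had a correlation of deviations over 0.1, and 7 and 8 of 25 libraries correlated best with their own number. Where a window keeps 1 library, that library is assumed to vary like the others. The 4 IDs named for their change over time kept its sign under all alternatives run; MSTRG.10604 passed the threshold under 4 and MSTRG.27870 under 3. The causes were not tested. Counting error limits MSTRG.20264 most among members.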
